A study of Mus musculus with 7 samples.

Results

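The Smoc2 Cxcl14 cells described here are progenitor cells of mouse subcutaneous fat that carry transcripts of both Smoc2, a secreted calcium-binding matricellular protein, and Cxcl14, a secreted chemokine. They were chosen by a rule on raw transcript counts, in unique molecular identifiers (UMIs). A cell needed at least 1 UMI each of Pdgfra, Smoc2 and Cxcl14, at most 1 UMI of Crabp1, at most 2 of Pi16, and no UMI of F3, Ptprc, Pecam1 or Epcam. The rule took 1077 of 39566 kept cells (305 young and 772 old). They were part of 9402 progenitors, meaning cells with a Pdgfra UMI and none of Ptprc, Pecam1 or Epcam. The rule and its genes were chosen from results of these same libraries, so the levels of the 9 rule genes, the share of cells that met the rule and the contrast of these cells with the rest are given as descriptions. The tissue was the stromal vascular fraction, the non-adipocyte cells released by collagenase digestion, of inguinal subcutaneous fat of female C57BL/6N mice. Droplet single-cell RNA sequencing (10x Genomics, 3' chemistry v3) covered 4 young libraries (mice of 11-12 weeks) and 3 old libraries (18 months). Neither group carried a transgene or a treatment. Whether each library came from 1 mouse or from a pool is not stated in the labels, and the p-values measure only the spread between these libraries.

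White fat grows partly by the formation of new adipocytes from fibroblast-like progenitors that carry the receptor PDGFRα. In mouse inguinal fat these are commonly divided into an interstitial population marked by Dpp4 and Pi16, which is thought to feed the others, committed preadipocytes marked by Icam1 and by low levels of adipocyte genes, and regulatory cells marked by F3. Committed preadipocytes lie close to vessels and make basement membrane, while other progenitors lay down the fibrillar collagens of the connective tissue between fat lobules.

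Of the 4 young libraries, replicates 1 to 4 gave 28, 50, 54 and 173 Smoc2 Cxcl14 cells, and of the 3 old libraries, replicates 1 to 3 gave 321, 162 and 289. Their summed counts lay between 454788 UMIs (young replicate 1) and 3825671 UMIs (old replicate 1), from libraries of 52336665 to 99516882 UMIs in all. Old cells were shallower: the median Smoc2 Cxcl14 cell held 18716 to 28459.5 UMIs in the young libraries and 10052 to 12692 in the old libraries, without overlap. The cell sums of library pairs of the same age differed by 4.399 to 19.5 chi-square units per degree of freedom, so no library repeated another. Of these cells, 2 barcodes recurred across pairs of libraries, and any pair shared between 2 and 19 barcodes of all kept cells. Scrublet marked at most 1.73% of the Smoc2 Cxcl14 cells of a library as doublets.

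At the edges of the rule, 741 cells failed it on Smoc2 alone, 780 on Cxcl14 alone, 61 on Crabp1 alone, 151 on Pi16 alone and 735 on F3 alone. Of the last, 550 were old. Just inside it, 29.8% of young and 15.8% of old members had exactly 1 Smoc2 UMI, and 26.9% and 10.1% had exactly 1 Cxcl14 UMI. Free RNA in droplets can give such single UMIs: in immune cells, which should lack both transcripts, 1.61% to 9.68% of cells in a library had a Cxcl14 UMI and 1.33% to 3.28% a Smoc2 UMI, at median depths of 4688 to 9667.5 UMIs.

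The markers supplied with the name committed preadipocytes were Smoc2, Cxcl14, Cyp26b1, Col4a1 and Cldn15. Levels are CPM, the summed UMIs of a gene scaled to a common library total, adjusted by edgeR's TMM factors within each cell set, unless said otherwise. Cldn15, a claudin of tight junctions, was higher in the Smoc2 Cxcl14 cells than in the other 8325 progenitors of the same library in 7 of 7 libraries, by a median of 1.34 on the log2(CPM + 5) scale, with CPM not TMM-scaled. Col4a1, a basement membrane collagen chain, was higher in 7 of 7 by a median of 1.21, and Cyp26b1, which breaks down retinoic acid, in 5 of 7 by a median of 0.65. Progenitors that failed the rule on Cxcl14 alone were nearer in these markers. Their mean CPM without TMM factors was 2077 for Col4a1, 72.5 for Cyp26b1 and 28.7 for Cldn15. The Smoc2 Cxcl14 cells stood at 2564, 62.4 and 54.0. Of 12 measured markers of committed preadipocytes, 8 were higher in 7 of 7 libraries. Among them were Lpl (lipoprotein lipase, 1.11), Col4a2 (1.11), Fabp4 (an adipocyte fatty acid binding protein, 0.87, possible free RNA from other cells, as it was over 10 times higher in another cell class), Col15a1 (0.86) and Pparg, the main regulator of adipocyte formation (0.56). Icam1 was higher in 6 of 7 libraries (0.43). The share of all genes that were higher in 7 of 7 was not counted. Of 12 measured markers of matrix-producing progenitors 3 were also higher in 7 of 7 (Adam12, Col1a1 and Fap) and 1 was lower. Of 13 regulatory markers 2 were higher (Adam12 and Alpl) and 3 lower. In the progenitors that failed on Cxcl14 alone, Lpl, Col4a2, Fabp4, Col15a1 and Pparg stood at 1631, 928, 811, 575 and 35.3 CPM. They stood at 2364, 1141, 1230, 739 and 43.7 CPM in the Smoc2 Cxcl14 cells (both without TMM factors). Dlk1, an inhibitor of adipocyte formation often used as a preadipocyte marker, was near its floor, at means of 0.0915 CPM in these cells and 1.97 CPM in the other progenitors, and was lower in all but old replicate 2, where the difference was 0 (median -0.26). Penk, a neuropeptide precursor, was higher in 2 of 7 (-0.23). All 16 measured interstitial markers were lower in 7 of 7 libraries, among them Sema3c (-3.17), Efhd1 (-2.54), Anxa3 (-2.05), Dpp4 (-1.999) and Cd55 (-1.92). The rule limits Pi16 in these cells and not in the other progenitors, so lower interstitial markers are favoured by the rule itself and are no support for the name. It likewise leaves cells with F3 only among the other progenitors. How far the rule shapes the higher committed preadipocyte markers was not tested.

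**Figure D1:**
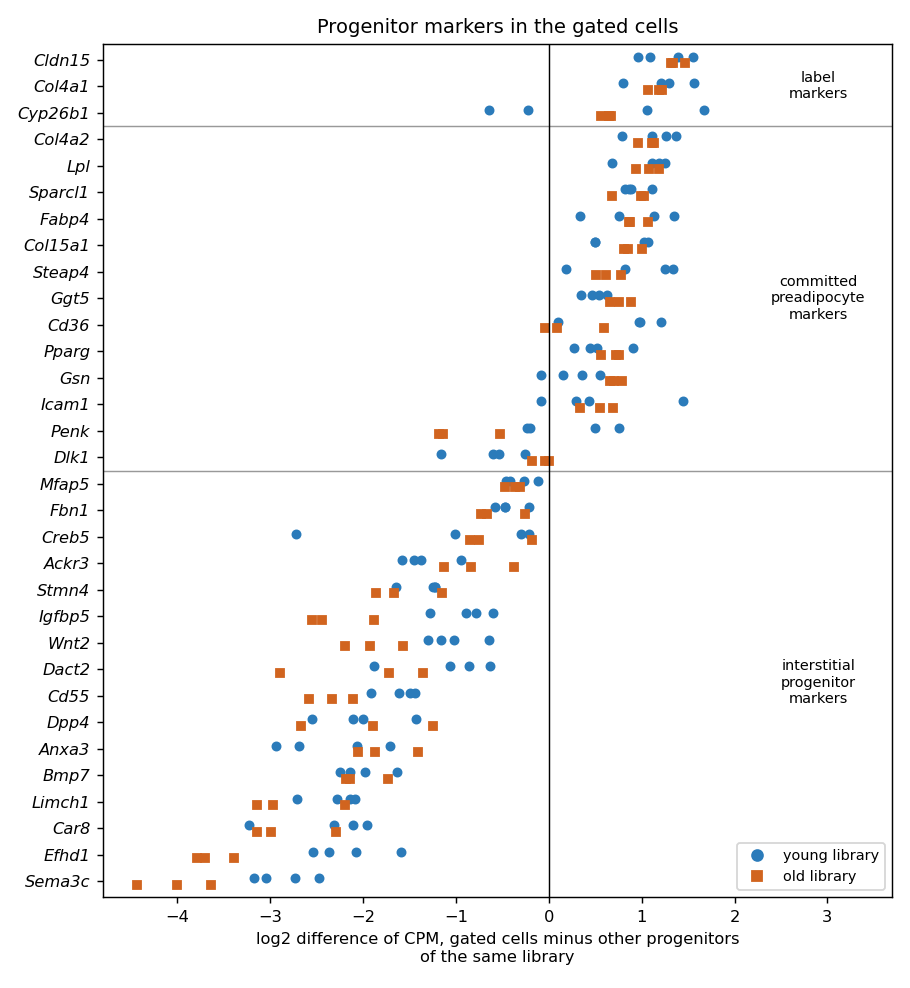
Level in the Smoc2 Cxcl14 cells minus that in the other progenitors of the same library, on the log2(CPM + 5) scale (x axis), for supplied markers, committed preadipocyte markers and interstitial markers (y axis); each point is a library and young and old libraries have their own colours. The points of all 16 interstitial markers lie below 0, while those of Cldn15 and Col4a1 lie above 0 in all 7 libraries.

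Other genes that were higher in these cells in 7 of 7 libraries, listed by size and not by a supplied list, were Cxcl9, an interferon-induced chemokine (1.23), Ntf3, a neurotrophin (1.11), Col5a3 (1.07), Msc, a bHLH repressor (1.03), Col6a3 (0.99) and Epas1, an oxygen-regulated transcription factor (0.98). For Cxcl9 this rested on the young libraries, at 1.23 to 2.003, against 0.03, 0.05 and 0.16 in the old. In the progenitors that failed on Cxcl14 alone, these genes stood in the same order at 38.4, 28.3, 1001, 30.3, 1617 and 113 CPM. The Smoc2 Cxcl14 cells stood at 107, 45.1, 1079, 38.6, 1858 and 147 CPM (both without TMM factors). At the other end were Smpd3 (-3.79), Akr1c18 (-3.76), Aldh1a3, which makes retinoic acid (-3.24, possible free RNA), Sfrp4 (-3.05), Tmem100 (-2.99) and Myoc (-2.90). For Myoc the difference was small in young replicates 1 and 2 (-0.54 and -0.02), against -2.21 to -5.23 in the other libraries. Of 18 basement membrane genes with a value, 10 were higher in 7 of 7 libraries, and of 13 Wnt modulators 8 were lower in 7 of 7. Such counts were not particular to these lists. Of 28 genes of fibrillar matrix 15 were higher and 6 lower in 7 of 7. Of 20 genes of BMP, GDF and TGF-beta signalling 12 were lower and 2 higher. The share over all genes was not counted, so these counts are descriptions only.

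The rule genes themselves differed in level between the ages within the selected cells. Cxcl14, on chr13:56288643-56296551 (mm10, minus strand), stood at 573, 240, 313 and 323 CPM in young replicates 1 to 4 and at 963, 982 and 1422 CPM in old replicates 1 to 3. All old libraries lay above all young libraries (362 ± 145, SD, n = 4, and 1122 ± 260, n = 3). Smoc2, on chr17:14279506-14404790 (plus strand), stood at 661, 120, 213 and 256 CPM in the young libraries and 625, 815 and 804 CPM in the old libraries, and the ages overlapped because of young replicate 1. In the other progenitors the means went from 87.7 to 616 CPM for Cxcl14 and from 109 to 295 CPM for Smoc2. The promoter-side window of Cxcl14, the 250 bases before its RefSeq start (GRCm38.p6, chr13:56296552-56296801, minus strand), is shown because the gene defines the cells. It holds no match to the GC box core GGGCGG, present in 32.7% of 32851 such windows, nor to the TATA box TATAAA, present in 12.4% (both strands).
Cxcl14: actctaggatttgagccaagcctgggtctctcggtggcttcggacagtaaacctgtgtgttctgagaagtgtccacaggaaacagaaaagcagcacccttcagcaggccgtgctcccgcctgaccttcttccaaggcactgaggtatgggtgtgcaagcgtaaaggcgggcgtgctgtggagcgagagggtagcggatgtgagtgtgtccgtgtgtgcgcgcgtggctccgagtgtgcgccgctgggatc

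Of the other supplied markers, Cldn15 (chr5:136966616-136975858, plus strand) stood at 20.5, 20.96, 26.5 and 35.4 CPM in the young libraries and 91.6, 84.3 and 101 CPM in the old libraries, with no overlap (25.8 ± 6.95, n = 4, and 92.4 ± 8.58, n = 3). At a fixed depth of 4000 UMIs per cell, a Cldn15 UMI was found in 12.4% ± 3.81 of young and 30.8% ± 1.00 of old Smoc2 Cxcl14 cells. Col4a1 stood at 1896 to 2659 CPM in the young libraries and 2637 to 3489 in the old, and Cyp26b1 at 5.30 to 71.6 and 34.6 to 201, so both overlapped. These markers were picked with earlier results of these libraries in view, so no test result is given for them.

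The Smoc2 Cxcl14 cells made up a larger part of the progenitors in every old library than in any young library. They were 3.86%, 2.28%, 7.41% and 7.72% of progenitors in young replicates 1 to 4 (mean 5.32% ± 2.68, n = 4) and 21.5%, 16.3% and 28.3% in old replicates 1 to 3 (22% ± 6.02, n = 3). Exact Clopper-Pearson intervals, which cover counting error only, ran from 1.70% to 9.55% over the young libraries and from 14.0% to 31.1% over the old libraries. When cells were first thinned to 4000 UMIs, the shares were 2.96% ± 1.06 (1.56% to 4.14%) and 23.7% ± 5.56 (18.8% to 29.7%). Shallower cells were left out there, so kept cells went from 19345 to 16092 in the young and from 20221 to 15289 in the old libraries. With at least 2 UMIs asked of Smoc2 and of Cxcl14 the means were 2.95% and 17.0%, and with F3 UMIs allowed 9.16% and 37.3%. Since the old cells also held more Cxcl14 and Smoc2 transcripts each (medians of 3 to 4 Cxcl14 UMIs per young member and 7 to 9 per old member), more cells of the kind and more transcripts per cell cannot be told apart by a rule on these genes. Progenitors as a whole were 29.0% ± 10.7 of kept young cells and 17.5% ± 4.66 of kept old cells, and of all kept cells the Smoc2 Cxcl14 cells were 1.57% ± 1.07 and 3.91% ± 1.503, values that overlap between the ages.

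**Figure D2:**
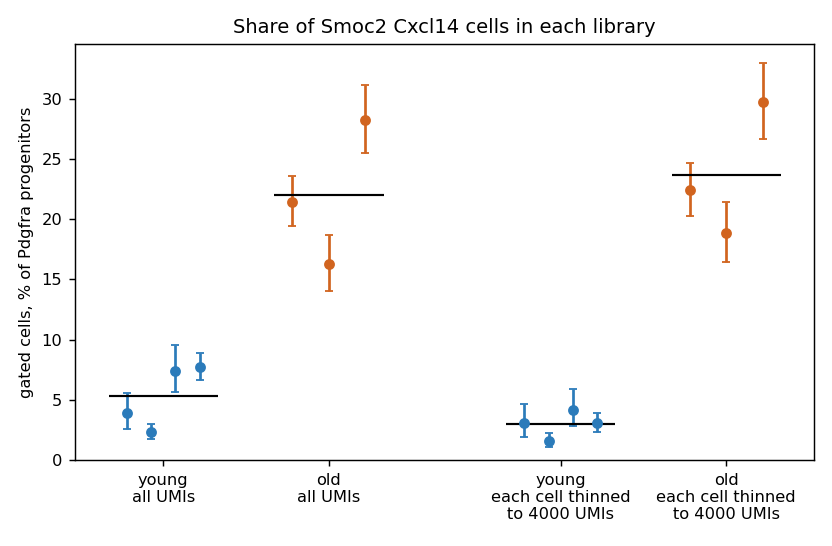
Share of progenitors that met the rule (y axis, percent) in each of the 7 libraries (x axis), with all UMIs and after thinning to 4000 UMIs with shallower cells left out. Bars are 95% Clopper-Pearson intervals and lines the means of the ages. The old libraries lie at 16.3% to 28.3% with all UMIs, above the young libraries at 2.28% to 7.72%.

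The first tested comparison asked which genes differed with age inside the Smoc2 Cxcl14 cells. Matrix genes, Wnt modulators, imprinted genes and secreted growth factors made up most of the listed genes that fell in the old cells, and few listed genes rose. Of 9973 genes tested on summed counts with edgeR's quasi-likelihood test, 390 passed an adjusted p of 0.05 (3.91%): 107 were higher in old cells (1.07%) and 283 lower (2.84%). The old and young libraries did not overlap for 371 of the 390, against 16.1% of all genes tested, and the median log2 fold change over all genes was 0.01. The count depended on the libraries: it was 621 when young replicate 1, the library with 28 of these cells, was left out, 125 for old replicate 1, 159 for old replicate 2, 210 for young replicate 3 and 248 for young replicate 4. On counts simulated with the same spread for all of 10236 genes, the test found 78% of changes of 2 on the log2 scale and 7% of changes of 1. Many smaller differences may thus have gone undetected. Depth and age moved together across the libraries. With cells thinned to 4000 UMIs before the rule and shallower cells left out, 3736 genes could be tested, of which 65 passed (11 higher and 54 lower). There 6 of 7 tested markers of matrix-producing progenitors and 6 of 26 genes of fibrillar matrix fell. So did 2 of 2 Wnt modulators and 3 of 10 imprinted genes, but 0 of 9 growth factors.

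**Figure D3:**
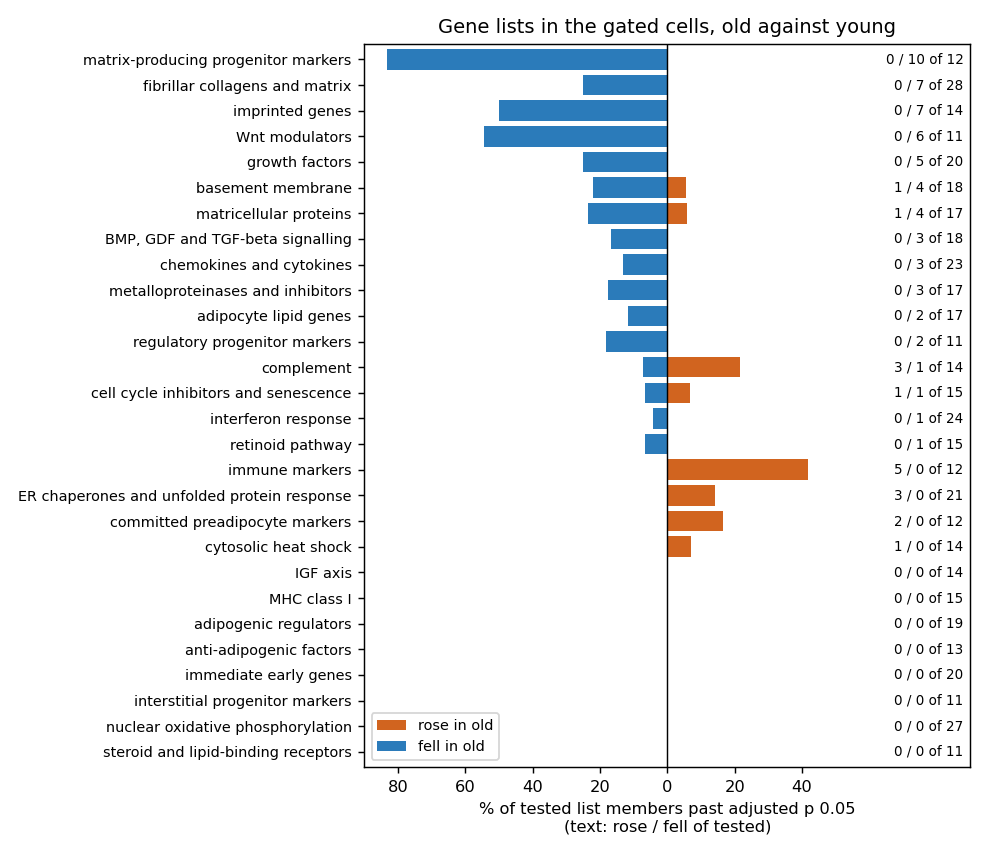
Percent of the tested members of each gene list (y axis) that were higher (right) or lower (left) in old Smoc2 Cxcl14 cells at an edgeR adjusted p of 0.05; lists with at least 10 tested members are drawn. The matrix-producing, Wnt and imprinted lists reach farthest to the left, with 10 of 12, 6 of 11 and 7 of 14 members.

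Genes of matrix-producing progenitors fell most. Of 12 tested markers of such cells 10 fell and none rose, with a median log2 fold change of -3.30 (0.01 over all genes). With a library left out the number was 7 to 11, the lowest without old replicate 1. In the other progenitors 8 of 13 tested members fell and none rose (median -2.37). The age change differed by test between these cell sets for 1 member, Postn. The list was drawn up with results of these libraries known. Postn (periostin, a matricellular protein of collagen assembly; chr3:54361109-54391037, plus strand) stood at 3272, 8155, 6954 and 5892 CPM in the young libraries and at 579, 792 and 787 CPM in the old libraries. The groups were far apart, at 6068 ± 2081 (n = 4) and 719 ± 121 (n = 3). The log2 fold change was -3.08 ± 0.32 (SE), with an edgeR adjusted p = 0.00141, and it passed with any library left out. The 250 bases before the RefSeq start of Postn (GRCm38.p6, chr3:54360857-54361106, plus strand) are shown as those of the marker of matrix-producing progenitors with the lowest p. Capitals mark the match to TATAAA, a motif in 12.4% of windows.
Postn: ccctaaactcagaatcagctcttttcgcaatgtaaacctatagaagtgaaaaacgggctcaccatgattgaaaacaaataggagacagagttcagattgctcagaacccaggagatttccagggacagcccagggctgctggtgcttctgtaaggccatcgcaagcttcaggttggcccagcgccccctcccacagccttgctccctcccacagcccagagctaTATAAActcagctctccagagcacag

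Cthrc1, a secreted protein of healing and fibrotic tissue, stood at 83.9, 66.9, 242 and 68.9 CPM in the young libraries and 3.92, 7.99 and 10.1 CPM in the old libraries. Young replicate 3 was well above the rest, and the lowest young library was still above the highest old library. Cthrc1 fell by 4.01 ± 0.54 on the log2 scale (edgeR adjusted p = 0.00321). Lrrc15, a surface marker of TGF-beta-responsive fibroblasts, stood at 38.9, 54.0, 176 and 81.5 CPM and then 5.76, 12.4 and 5.94 CPM, a log2 fold change of -3.53 ± 0.51 (edgeR adjusted p = 0.00434). Cpz, a carboxypeptidase of the extracellular space, fell by 3.67 on the log2 scale and Gria1, a glutamate receptor subunit, by 5.07. Aspn, a small proteoglycan that binds TGF-beta, fell by 2.60 and Adam12, a metalloproteinase also carried by regulatory progenitors, by 1.53. The call for Adam12 was lost on leaving out young replicate 3 or any old library, with an edgeR adjusted p of up to 0.105, and that for Aspn without old replicate 1. The members that did not pass were Tnc (tenascin C, -2.77, edgeR adjusted p = 0.0525) and Fap (-0.57, edgeR adjusted p = 0.125).

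**Figure D4:**
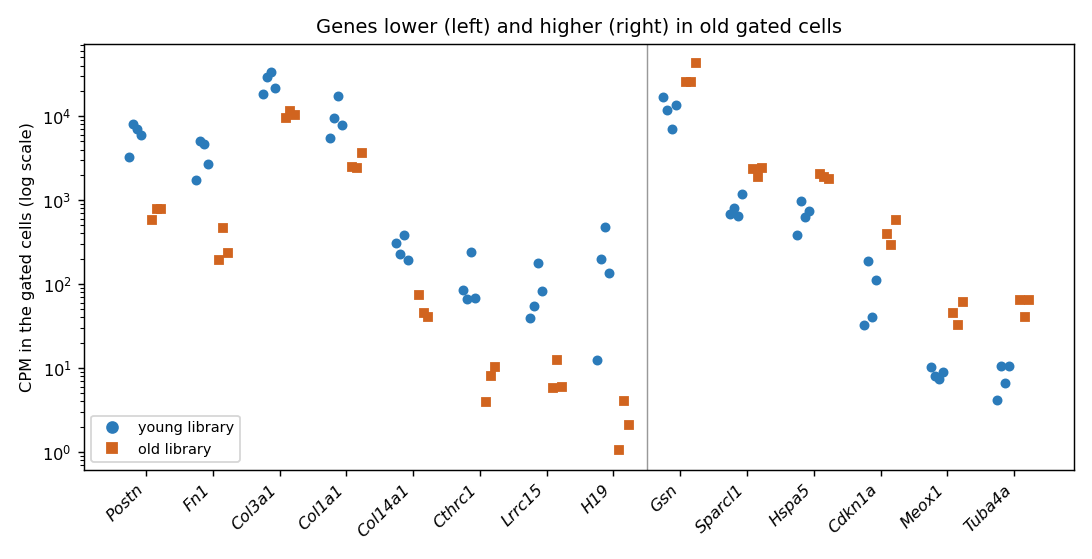
Level of 14 genes in the Smoc2 Cxcl14 cells (y axis, CPM on a log scale) in each library, young and old in separate colours; the genes at left were lower and those at right higher in old cells. Postn stands at 3272 to 8155 CPM in the young libraries and 579 to 792 CPM in the old, and Meox1 at 7.28 to 10.2 and 32.8 to 60.8.

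Fibronectin and 6 collagen genes fell as well, but most genes of matrix assembly did not pass. Of 28 tested genes of fibrillar matrix 7 fell and none rose (median -0.23), with 3 falling without old replicate 1 and 4 without old replicate 2. Fn1, the gene of fibronectin (chr1:71585520-71653200, minus strand), stood at 1720, 5062, 4666 and 2699 CPM in the young libraries and 193, 466 and 235 CPM in the old libraries, without overlap. Its log2 fold change was -3.57 ± 0.45 (edgeR adjusted p = 0.00223). Col3a1 (type III collagen) stood at 18513, 29184, 33734 and 21453 CPM and then 9581, 11542 and 10426 CPM, and Col1a1 (type I collagen) at 5499, 9404, 17431 and 7932 and then 2464, 2384 and 3649, both without overlap. They fell by 1.29 ± 0.24 (edgeR adjusted p = 0.0120) and by 1.83 ± 0.36 (edgeR adjusted p = 0.0163). On leaving out old replicate 1 neither passed, at edgeR adjusted p = 0.0703 and 0.0937, Col1a1 lost its call for old replicate 2 as well, and Col1a2 (-1.66) lost its call on leaving out any old library. Col14a1, a collagen that associates with fibrils, fell by 2.37 ± 0.30, from 277 ± 83.9 to 53.0 ± 17.4 CPM (edgeR adjusted p = 0.00235), and Col16a1 by 1.63. Both passed with any library left out. Col12a1 fell by 2.01, a call lost on leaving out young replicate 3 or any old library. The other 21 genes did not pass, among them the type V collagens Col5a1 (-0.56), Col5a2 (-0.91) and Col5a3 (0.41). Dcn, the abundant proteoglycan decorin (0.07), the collagen chaperone Serpinh1 (0.10), the cross-linking enzyme Lox (0.30) and the type VI collagens Col6a1, Col6a2 and Col6a3 (0.36, 0.46 and 0.54) had values above 0.

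In the basement membrane list 4 of 18 genes fell and 1 rose (median -0.02). When old replicate 1 was left out 1 gene fell, for old replicate 2 it was 2 genes, and for old replicate 3 the number that rose was 2. Frem1, an adhesion protein of basement membranes, stood at 65.4, 94.3, 148 and 84.4 CPM in the young libraries and 8.37, 13.3 and 8.74 in the old, a log2 fold change of -3.31 ± 0.32 (edgeR adjusted p = 0.00133). Col18a1, the source of endostatin, went from 556 ± 198 to 154 ± 10.9 CPM (-1.86, edgeR adjusted p = 0.00816). Its call was lost without old replicate 1. Sparc, a collagen-binding glycoprotein, fell by 1.33, with no call on leaving out any old library, and Agrn, agrin, by 0.93, and the call for Agrn was lost on leaving out replicates 2 or 3 of the young or 1 or 2 of the old libraries. Sparcl1, the close relative of Sparc, moved the other way. It stood at 685, 806, 648 and 1182 CPM in the young libraries and 2312, 1883 and 2428 CPM in the old, a log2 fold change of 1.41 ± 0.24 (edgeR adjusted p = 0.00874), and passed with any library left out. The type IV collagen chain Col4a2 (0.34), the laminin chains Lama4 (0.01) and Lamb1 (-0.05), perlecan, Hspg2 (0.21), and nidogen, Nid1 (-0.21), did not pass.

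Among 17 tested matricellular genes 4 fell, namely Postn, Cthrc1, Efemp1 (-1.37) and Wisp1 (-3.97), and Thsd7a rose (median of the list -0.04). The number that fell was 2 when old replicate 1 or 2 was left out, and the number that rose was 2 for young replicate 1. The Wisp1 call did not hold on leaving out any old library, and that of Efemp1 did not for old replicates 1 and 2. Thsd7a, a membrane protein with thrombospondin repeats, stood at 10.2, 13.7, 7.95 and 35.7 CPM in the young libraries and 80.3, 101 and 61.9 in the old (2.08 ± 0.40, edgeR adjusted p = 0.0146). The ages did not overlap, but the call was lost without old replicate 1 or old replicate 2 and after thinning (edgeR adjusted p = 0.116). Of 17 metalloproteinases and inhibitors 3 fell (median -0.54): Adamts2, which trims procollagen (-1.32, edgeR adjusted p = 0.0085), Adamts15 (-1.45) and Mmp14, a collagenase of the cell surface (-0.83, edgeR adjusted p = 0.049). Leaving out old replicate 1 left 1 call, and Mmp14 kept its call in 1 of 7 such fits.

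Wnt modulators fell in 6 of 11 tested members, and none rose (median -1.74; 3 fell without old replicate 1 or old replicate 2). Wnt5a, a ligand of the beta-catenin-independent branch, stood at 65.4, 28.2, 31.1 and 29.0 CPM in the young libraries and 8.37, 7.10 and 6.29 in the old. Young replicate 1 was the highest, and the log2 fold change was -2.27 ± 0.33 (edgeR adjusted p = 0.00425). The secreted Wnt-binding proteins Sfrp1 and Sfrp2 fell by 1.74 and 2.15, and Dkk3, a Dickkopf relative, by 2.21. Axin2 and Nkd1, negative regulators that Wnt signalling itself induces, fell by 1.87 (edgeR adjusted p = 0.0205) and 1.18 (edgeR adjusted p = 0.0383), and Axin2 lost its call on leaving out any old library. Nkd1 kept its call with 2 of 7 libraries left out in turn, and Sfrp2 with 3 of 7. Wnt2 (-0.90), Dkk2 (-3.07, edgeR adjusted p = 0.0547) and Wnt11 (1.08) did not pass.

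Among secreted factors, 5 of 20 tested growth factor genes fell and none rose (median -0.85). The number was 8 when young replicate 1 was left out, 2 for old replicate 2, and 3 for any of the others except young replicate 2. Angpt2, a ligand of the endothelial receptor Tie2, stood at 47.0, 46.8, 88.7 and 36.7 CPM in the young libraries and 6.80, 10.6 and 8.74 in the old, a log2 fold change of -2.67 ± 0.34 (edgeR adjusted p = 0.00235). Figf, the lymphatic growth factor VEGF-D, fell by 1.58, Hgf, hepatocyte growth factor, by 2.26 and Angptl2 by 0.91. With each library left out in turn their calls held in 5, 3 and 1 of 7 fits. Ptn, pleiotrophin, fell by 6.75, from 171 ± 141 to 1.49 ± 0.54 CPM, but it was 29 times higher in epithelial, endothelial or immune cells, so its part from free RNA was not tested. Of 18 genes of BMP, GDF and TGF-beta signalling 3 fell (median -0.11; none without old replicate 1). Tgfb2, a TGF-beta ligand, stood at 55.2, 101, 43.7 and 59.9 CPM in the young libraries and 16.2, 23.96 and 14.0 in the old (-1.86 ± 0.31, edgeR adjusted p = 0.00816), and lost its call without old replicate 1. Chrdl1, a secreted BMP antagonist, fell by 2.41, and its call held in 3 of 7 such fits. No member of the IGF axis list passed (14 tested, median -0.17). Its values included Igf1 at -1.39 (edgeR adjusted p = 0.104) and Igfbp5 at -1.07 (edgeR adjusted p = 0.0934).

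Of 23 tested chemokines and cytokines 3 fell and none rose (median 0.19). The number was 5 when young replicate 1 was left out, 1 for young replicates 3 and 4 and old replicate 3, and 0 for old replicates 1 and 2. Cxcl9 stood at 42.9, 133, 278 and 232 CPM in the young libraries and 19.6, 25.7 and 37.4 in the old, so that young replicate 1 lay close to old replicate 3. Its log2 fold change was -2.68 ± 0.50 (edgeR adjusted p = 0.0124), and the call was lost without old replicate 1 or old replicate 2. Cx3cl1, fractalkine, fell by 2.21 with overlapping ages, and Tslp, a cytokine of barrier tissues, by 1.54, calls that held in 2 and 1 of 7 fits with a library left out. In the interferon response list, 1 of 24 genes fell (Gbp3, -1.13, a call that held in 2 of 7 such fits) and the median was -0.28. None of 15 MHC class I genes passed (median 0.24), a family whose members share sequence and whose counts are therefore uncertain.

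Imprinted genes, expressed from 1 parental copy and many of them active in growing tissue, fell in 7 of 14 tested members, and none rose (median -1.53; 4 fell without old replicate 2 or old replicate 3). H19, a growth-related long noncoding RNA (chr7:142575529-142578143, minus strand), stood at 12.3, 196, 482 and 136 CPM in the young libraries and at 1.05, 3.99 and 2.10 CPM in the old. The young libraries differed among themselves by far more than the old, and the lowest of them still lay above every old library. The log2 fold change was -6.55 ± 0.99 (edgeR adjusted p = 0.00516). Mest (-3.58), the zinc finger genes Zim1 (-3.03), Peg3 (-1.77) and Plagl1 (-1.82), and the noncoding RNA Meg3 (-2.73) fell as well. Cdkn1c, the cell cycle inhibitor p57, stood at 182, 330, 381 and 281 CPM in the young libraries and 60.7, 52.8 and 88.8 in the old (-2.13 ± 0.29, edgeR adjusted p = 0.00321). Plagl1 passed although the ages overlapped. With each library left out in turn the calls of Plagl1, Peg3 and Meg3 held in 2, 4 and 5 of 7 fits, and those of H19, Mest, Zim1 and Cdkn1c in 7. Grb10 (-0.46), Gnas (-0.14), Igf2r (0.32), Ndn (0.14) and Sgce (0.33) did not pass. In the other progenitors 4 of 19 tested imprinted genes fell (median -0.94), and the age change differed by test between the cell sets for 1 member.

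Cdkn1a, the cell cycle inhibitor p21 (chr17:29090976-29100727, plus strand), moved opposite to Cdkn1c. It stood at 32.7, 187, 40.4 and 112 CPM in the young libraries and 396, 293 and 580 CPM in the old, without overlap. It rose by 2.15 ± 0.49 on the log2 scale (edgeR adjusted p = 0.0311). The call was lost on leaving out any old library or young replicates 3 or 4, with an edgeR adjusted p of up to 0.104. It was also lost after thinning (edgeR adjusted p = 0.0565). At 4000 UMIs per cell a Cdkn1a UMI was seen in 17.0% ± 14.4 of young and 64.8% ± 6.06 of old Smoc2 Cxcl14 cells, and in 22.6% and 59.9% of the other progenitors. Of 15 tested genes of cell cycle inhibition and senescence only Cdkn1a rose and only Cdkn1c fell (median -0.15). Trp53 (0.69), Mdm2 (0.13), Cdkn2b (-0.08) and Gdf15 (-0.15) did not pass, and none of 5 tested cell cycle genes passed.

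Chaperones of the endoplasmic reticulum (ER), where secreted proteins fold, were mostly higher in old cells, but few passed. Of 21 tested genes 19 had a log2 fold change above 0, 3 rose and none fell (median 0.52). Hspa5, the ER chaperone BiP (chr2:34771970-34777547, plus strand), stood at 387, 972, 628 and 735 CPM in the young libraries and 2063, 1895 and 1784 CPM in the old libraries. Every old library was above every young library, at 1914 ± 141 (n = 3) and 680 ± 243 (n = 4). Hspa5 rose by 1.49 ± 0.27 (edgeR adjusted p = 0.0123). Dnajb11, its cochaperone, rose by 0.72, and Manf, a secreted ER protein, by 0.81, calls that held in 1 and 2 of 7 fits with a library left out. On leaving out old replicate 1 none of the list rose, and Hspa5 then had an edgeR adjusted p = 0.0586. The number that rose was 6 when young replicate 1 was left out, and 1 for young replicates 3 and 4 and old replicates 2 and 3. Dnajb9 (1.46, edgeR adjusted p = 0.0534) and Hyou1 (0.99, edgeR adjusted p = 0.0530) came close. Ddit3, the transcription factor CHOP, had a log2 fold change of -0.76 (edgeR adjusted p = 0.177), and Sel1l -0.18.

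The ER stress response element, CCAAT and CCACG with 9 bases of any kind between them, is the site through which ATF6 and its partners drive ER chaperones. On both strands of the 250 bases before the RefSeq start it matched 7 of the 18 tested ER genes with a window, against 0.113% of 32851 windows. The 8 matches are shown on GRCm38.p6 with the fixed letters in capitals, as a sequence that these listed genes share. Distances are to the RefSeq start. For Hspa5 that start differs from the first base of the GENCODE location above, and its match lies inside that location.
Hspa5 (chr2:34772025-34772043, plus strand, 65 bases before the start): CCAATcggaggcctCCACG
Calr (chr8:84847075-84847093, plus strand, 162 bases): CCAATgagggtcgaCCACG
Canx (chr11:50325800-50325818, minus strand, 145 bases): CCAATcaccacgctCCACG
Creld2 (chr15:88819520-88819538, minus strand, 126 bases): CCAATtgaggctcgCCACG
Dnajc3 (chr14:118937827-118937845, plus strand, 105 bases): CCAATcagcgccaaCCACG
Hsp90b1 (chr10:86705533-86705551, plus strand, 107 bases): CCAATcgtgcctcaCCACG
Hsp90b1 (chr10:86705638-86705656, minus strand, 212 bases): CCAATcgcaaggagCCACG
Pdia6 (chr12:17266491-17266509, plus strand, 98 bases): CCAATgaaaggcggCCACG

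Of the 7 genes with this element, Hspa5 alone passed. Creld2 (0.74), Calr (0.65), Dnajc3 (0.52), Canx (0.29), Pdia6 (0.24) and Hsp90b1 (0.20) had positive log2 fold changes, with an edgeR adjusted p of 0.101 for Calr and higher for the rest. A match describes the letters and does not show that a factor binds there. In the cytosolic heat shock list 1 of 14 genes rose (Hspb1, 1.24), a gene 15 times higher in another cell class, and the call held in 2 of 7 fits with a library left out. None of 20 immediate early genes, which are switched on within minutes of a stimulus, passed; their median was 0.50, and Egr1 (1.27) and Ier2 (0.97) had edgeR adjusted p values of 0.0556 and 0.0534.

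No adipogenic regulator passed. Over 19 tested genes the median log2 fold change was 0.04. Pparg stood at 38.0 CPM on average in young and 53.2 CPM in old cells (0.43, edgeR adjusted p = 0.51), and Cebpa, its partner in adipocyte formation, at 41.1 and 71.3 CPM (0.77, edgeR adjusted p = 0.205). None of 13 anti-adipogenic factors passed (median -0.09). Among 17 adipocyte lipid genes Scd1 and Scd2, the desaturases that make monounsaturated fatty acids, fell by 1.27 (edgeR adjusted p = 0.00546) and 1.45 (edgeR adjusted p = 0.00313). Scd2 stood at 85.9, 70.9, 76.2 and 89.2 CPM in the young libraries and 28.8, 33.3 and 26.6 in the old. Both passed with any library left out, but Scd1 lost its call after thinning (edgeR adjusted p = 0.0764). Fabp4 (0.30), Lpl (0.36), Cd36 (0.08), Plin2 (0.29) and Fasn (-0.32) did not pass, with Fabp4 and Cd36 possible free RNA. The committed preadipocyte list held 2 of 12 genes that rose, Sparcl1 and Gsn, and none that fell (median 0.35; 1 rose when young replicate 2 or old replicates 1 or 3 were left out). Gsn, the actin-severing protein gelsolin, stood at 17087, 11686, 7066 and 13530 CPM in the young libraries and 25522, 25470 and 42542 in the old (1.34 ± 0.29, edgeR adjusted p = 0.0272). On leaving out young replicates 2 or 4 or old replicates 1 or 3 its edgeR adjusted p was up to 0.0968, and after thinning it was 0.139. None of 11 interstitial markers with enough counts passed (median -0.17). Of 11 regulatory markers Adam12 and Chrdl1 fell, and neither did on leaving out any old library. None of 27 genes of oxidative phosphorylation (median 0.04) and none of 11 steroid and lipid-binding receptors (median -0.09) passed.

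The largest rises outside the lists were in genes of low level. Meox1, a mesodermal homeobox transcription factor, stood at 10.2, 8.06, 7.28 and 9.01 CPM in the young libraries and 45.0, 32.8 and 60.8 in the old. The young libraries were nearly alike, and the log2 fold change was 2.44 ± 0.27 (edgeR adjusted p = 0.00146). Tuba4a, an alpha tubulin, stood at 4.09, 10.5, 6.62 and 10.6 CPM and then 64.1, 40.8 and 64.3 (2.68 ± 0.28, edgeR adjusted p = 0.00141). Hpgd, which inactivates prostaglandins, stood at 38.9, 30.6, 13.9 and 11.3 CPM and then 93.7, 96.7 and 79.0 (2.10 ± 0.35, edgeR adjusted p = 0.00798). These calls and that of Nabp1, a single-stranded DNA binding protein (2.47), passed with any library left out. Ndufa4l2, a mitochondrial protein induced at low oxygen, rose by 1.90 and lost its call without young replicate 3 and after thinning. Atcayos (4.82), Csprs (4.32) and H2-Q10 (2.32) rose too, but the first is annotated antisense to another gene and the others have near-identical relatives, so their counts are uncertain.

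Markers of other cell types were summed in the Smoc2 Cxcl14 cells. The summed level of 18 immune markers was 119 to 207 CPM in the young libraries and 250 to 481 CPM in the old, led by Cd74, against 25222 CPM or more in immune cells. Of 12 tested immune markers 5 rose, among them C1qb (1.99, edgeR adjusted p = 0.00529), and all 12 were over 10 times higher in other cell classes. The number that rose was 1 when young replicate 4 or old replicate 2 was left out, and 3 for young replicates 2 and 3 and old replicate 1. Complement C1qa, C1qb and C1qc, which rose in the complement list beside 1 fall (Cd59a, -2.08), are among such genes. With doublets left out, the calls of C1qb, C1qc and Laptm5, a lysosomal membrane gene of leukocytes, were lost. The calls of C1qa, C1qc and Cd59a each held in 2 of 7 fits with a library left out, and the part of free RNA in them was not tested. The 10 mural markers summed to 82.6 to 740.5 CPM in the young and 56.2 to 78.4 CPM in the old libraries, against 109 to 539 and 55.9 to 116 CPM in the other progenitors. Abcc9 (-2.10) and Kcnj8 (-3.69), channel genes of pericytes, fell, and neither did without old replicate 1; Kcnj8 is possible free RNA. The 11 endothelial markers summed to 628 to 1560 and 614 to 2060 CPM, led by Fabp4, which preadipocytes also express, and Mmrn1 was at 0. Of epithelial, Schwann, erythroid and epidermal markers none of 4, 3, 3 and 1 tested passed. The sums of the mature adipocyte markers were 8.57 to 45.5 CPM in young and 7.27 to 9.41 CPM in old libraries, and Acvr1c was at 0.

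A second comparison asked where the age change of these cells differed from that of the other progenitors of the same 7 libraries. Fibronectin, several matrix genes and secreted signals fell further in the Smoc2 Cxcl14 cells, while a smaller number of genes had the more positive change in them. The other progenitors, tested on their own, gave 184 calls of 13325 genes (1.38%). The difference between the age changes of the paired sums passed for 144 of 12321 genes (1.17%): 32 were more positive in the Smoc2 Cxcl14 cells (0.26%) and 112 more negative (0.909%). Without old replicate 1 or old replicate 2 the count was 78 or 70. On simulated counts a difference of 2 on the log2 scale was found in 26% of cases and of 1 in 1%. The simulation drew the cell sets of a library independently, without the library effects that the paired model removes. Recovery in the real sums was thus not measured.

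**Figure D5:**
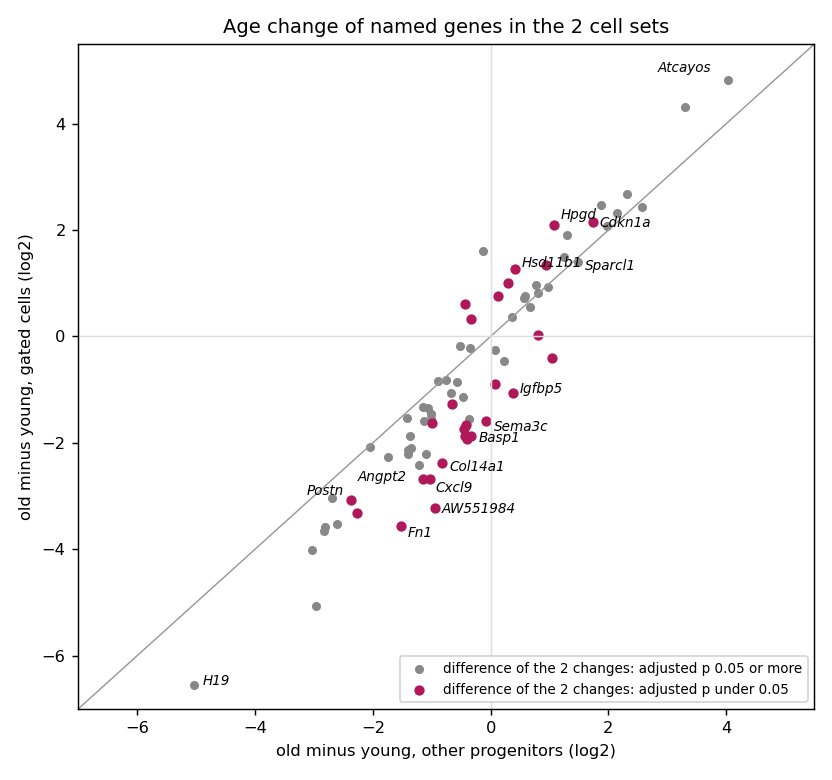
Log2 fold change of old against young in the other progenitors (x axis) and in the Smoc2 Cxcl14 cells (y axis), each point a named gene tested in both. Named genes were picked partly by large changes or a low p of the difference, so the share of coloured points reflects that choice. Genes over 10 times higher in other cell classes are left out and genes whose difference passed are in magenta. Fn1 and Col14a1 lie below the diagonal, and Hsd11b1 and C1qtnf1 above it.

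Fn1 went from 5205 to 1823 CPM in the other progenitors (-1.51, edgeR adjusted p = 0.0539) and from 3537 to 298 in the Smoc2 Cxcl14 cells. The difference of the log2 changes was -2.003 ± 0.20 (edgeR adjusted p = 0.000115). Col14a1 had log2 changes of -0.82 and -2.37 (difference -1.497 ± 0.20, edgeR adjusted p = 0.000736), Postn of -2.37 and -3.08 (-0.67 ± 0.11, edgeR adjusted p = 0.00522) and Frem1 of -2.26 and -3.31 (-0.99, edgeR adjusted p = 0.0167; lost on leaving out old replicate 1 or 3). Col1a1, of type I collagen, had log2 changes of -1.89 and -1.83, and its difference of 0.09 did not pass. Among secreted signals, Tgfb2 (-0.43 and -1.86; difference -1.42), Sfrp1 (-0.45 and -1.74; -1.19), Angpt2 (-1.16 and -2.67; -1.47) and Cxcl9 (-1.03 and -2.68; -1.58) passed the test of the difference. The call was lost for Sfrp1 on leaving out old replicate 1 and for Angpt2 on leaving out old replicate 3. Wnt2 had a log2 change of 0.07 in the other progenitors and -0.90 in the Smoc2 Cxcl14 cells, a difference of -1.14 ± 0.20 (edgeR adjusted p = 0.00806, and 0.0650 without old replicate 1).

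For another group of genes the change was more negative in the Smoc2 Cxcl14 cells although these genes moved little or upward in the other progenitors. Of these, Igfbp5, Cd55 and Sema3c are on the interstitial list, as is Wnt2 above, and 5 members of that list differed in this direction. The rule limits Pi16 only in the Smoc2 Cxcl14 cells, so the cells rich in Pi16 are all among the other progenitors. How far the rule shapes these differences was not tested. Igfbp5, an IGF binding protein, went from 1656 to 2156 CPM in the other progenitors and stood at 1344, 1023, 464 and 738 CPM in the young and 448, 445 and 382 in the old Smoc2 Cxcl14 cells. The difference was -1.41 ± 0.15 (edgeR adjusted p = 0.000247), while neither change passed by itself. Cd55, a complement inhibitor and interstitial marker, went from 229 to 399 CPM and from 72.3 to 74.2 CPM (difference -0.79, edgeR adjusted p = 0.00628), and Sema3c, another interstitial marker, from 345 to 328 and from 45.8 to 15.0 (-1.54, edgeR adjusted p = 0.000975). Basp1, a membrane-linked signalling protein, had log2 changes of -0.33 and -1.87 (difference -1.61), and Tmem158 of -0.40 and -1.93 (-1.42). Has1, a hyaluronan synthase, stood at 4.09, 467, 729 and 972 CPM in the young and 178, 89.2 and 253 in the old Smoc2 Cxcl14 cells, with young replicate 1 far below every other library. Its difference was -1.25 ± 0.12 (edgeR adjusted p = 0.000115), and -1.27 without that library.

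In the other direction, C1qtnf1, a secreted relative of adiponectin, stood at 59.3, 58.0, 34.4 and 52.5 CPM in the young and 74.0, 86.5 and 71.0 in the old Smoc2 Cxcl14 cells, while its mean went from 72.6 to 53.9 CPM in the other progenitors. The difference was 1.04 ± 0.12 (edgeR adjusted p = 0.000328). Hsd11b1, which turns inactive glucocorticoid into its active form, stood at 160, 61.3, 55.6 and 231 CPM in the young and 240, 308 and 368 in the old Smoc2 Cxcl14 cells. The old libraries all lay above the young, its mean went from 161 to 214 CPM in the other progenitors, and the difference was 0.94 ± 0.11 (edgeR adjusted p = 0.000513). Hpgd (difference 0.91), Nova1 (0.72), Ogn (0.70), Lrrn4cl (0.66), Cdkn1a (0.55, edgeR adjusted p = 0.0456) and Gsn (0.48, edgeR adjusted p = 0.0304) were also more positive. With each library left out in turn, the difference held in 1 of 7 fits for Gsn, 2 for Cdkn1a and 6 for Hpgd, and in 7 for the others. With cells thinned to equal depth before the rule was applied, the differences of C1qtnf1, Nova1 and Lrrn4cl did not pass, and that of Lrrn4cl was lost also under the stricter rule and with F3 UMIs allowed. For Hspa5 (0.27, edgeR adjusted p = 0.168), Meox1 (0.03) and Sparcl1 (-0.03) the test did not pass, which does not show that the 2 sets changed alike.

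The last comparison set the Smoc2 Cxcl14 cells beside their nearest neighbours, 780 progenitors with Smoc2 that met every other part of the rule but had no Cxcl14 UMI (52, 150, 80 and 287 in the young libraries and 82, 82 and 47 in the old). The age change differed for 15 of 10379 genes (0.145%), 8 of them more positive in the Smoc2 Cxcl14 cells (0.0771%) and 7 more negative (0.0674%). A difference of 2 was found in 8% of cases simulated with independent cell sets, so recovery in the real sums was not measured here either. Without old replicate 1 or old replicate 3 the count was 6, and without old replicate 2 it was 25. No difference passed for Postn (0.07), Cthrc1 (-0.04), Cpz (0.13), Lrrc15 (0.54), Gria1 (1.05), Frem1 (0.89) or Fn1 (-0.78), which does not show that the sets changed alike.

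Slit2, a secreted guidance ligand (chr5:47983138-48307733, plus strand), stood at 124 ± 22.2 CPM in young and 107 ± 15.1 CPM in old Smoc2 Cxcl14 cells (CPM without TMM factors) and at 162 ± 30.4 and 45.0 ± 10.2 CPM in the neighbours. The level thus held by value in the first set and was lower in every old library of the second. The difference of the log2 changes was 1.58 ± 0.19 (edgeR adjusted p = 0.000789). Hsd11b1 went from 126 ± 82.4 to 305 ± 57.2 CPM beside 165 ± 94.4 and 196 ± 44.5 in the neighbours (1.09 ± 0.16, edgeR adjusted p = 0.00471). C4b, a complement component, went from 377 ± 388 to 263 ± 50.7 CPM beside 156 ± 146 and 360 ± 73.6 (-1.66 ± 0.14, edgeR adjusted p = 6.13e-06). Its young libraries ranged from 57.6 to 875 CPM, and it has a near-identical copy, so its counts are uncertain. These were the only named genes whose call held with any library left out. Mgp, a matrix inhibitor of calcification (2.50), Mbp (2.60), Ifitm1 (1.49) and Egflam (1.21) were more positive and Tmem158 (-2.05), Sema3c (-1.63) and Cd55 (-0.94) more negative at an edgeR adjusted p between 0.0195 and 0.0493.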

How the data were processed

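The authors' deposited files hold, for each of the 7 libraries, a matrix of whole UMI counts with its genes and barcodes. Per the submitters' processing notes, the counts come from Cell Ranger 4.0.0 and build mm10. Cell labels from the authors were not used here. The members of the rule, the gene lists and the tests were chosen with earlier results of these data known. A kept cell had 500 or more UMIs, 300 or more genes and no more than 15% of UMIs from mitochondrial genes. Doublets, scored with Scrublet at 0.8% per 1000 barcodes, stayed in and were left out in an alternative. Free RNA was not removed. Genes over 10 times higher (CPM) in immune, endothelial or epithelial cells without Pdgfra are named as possible free RNA.

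UMI counts were summed per library and cell set, for libraries with at least 20 cells of the set, and tested 2-sided with edgeR 4.0.16 under R 4.3.3 (filterByExpr, TMM, glmQLFit, glmQLFTest), with Benjamini-Hochberg adjustment over all genes tested and a threshold of 0.05. The 9 rule genes stayed in the library sizes and out of the tests. Cyp26b1, Col4a1 and Cldn15 stayed among the genes fitted, adjusted and counted, but no test result is given for them. Differences between cell sets were tested in a model with library, cell set and their interaction with age. The recovery on simulated data used 100 genes of each size of change. It gave all genes the same spread and drew the cell sets of a library independently.

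Named genes were the 10 largest rises and 10 largest falls that passed, without overlap between ages, with a mean of at least 20 CPM at 1 age and no sign of free RNA, then up to 3 passing members of each list by p (or the lowest p), and 5 genes per direction of each difference. Other genes are named to describe a list and were chosen after their values were seen. The alternatives were each library left out, a block on the replicate number, DESeq2 1.42.0, size factors by RLE, tests without an expression filter, no doublets, stricter cell filters (500 genes, 5% mitochondrial), a stricter rule with at least 2 UMIs, and thinning to 4000 UMIs. Cells with fewer than 4000 UMIs were left out of all thinned values. Allowing F3 UMIs was added after seeing the data. Locations are from GENCODE M21, in which 27645 of 27998 gene identifiers were found. The promoter windows are from RefSeq on GRCm38.p6, which held 4 of the 5 supplied markers. Some listed genes are not reported here.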

Additional observations from a re-analysis of the deposited data

Results flagged for a closer look

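In the young libraries, 11 of 98 named genes had a library far from the other 3 by Dixon's criterion, which flags about 1 in 20 groups by chance. In TMM-scaled CPM these were Tslp (30.7) and Wnt5a (65.4), high in young replicate 1, Atcayos (7.26), Nabp1 (16.9), Sox9 (29.8), Cd55 (121) and Pi16 (22.6), high in young replicate 2, Cthrc1 (242) and Col4a1 (2659), high in young replicate 3, Crabp1 (1.32), low in young replicate 3, and Car3 (44.4), high in young replicate 4. Pi16, Crabp1 and Col4a1 belong to the rule or the supplied markers, and no test result is given for them.

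The log2 fold change with age differed by test between the Smoc2 Cxcl14 cells and the other progenitors of the same libraries for 28 named genes. It was more negative in the Smoc2 Cxcl14 cells for AW551984 (-2.29), Fn1 (-2.003), Sbsn (-1.66), Basp1 (-1.61), Cxcl9 (-1.58), Sema3c (-1.54), Sox9 (-1.51), Col14a1 (-1.497), Angpt2 (-1.47), Tgfb2 (-1.42), Tmem158 (-1.42), Igfbp5 (-1.41), Has1 (-1.25), Sfrp1 (-1.19), Wnt2 (-1.14), Frem1 (-0.99), Cd55 (-0.79), Postn (-0.67), Scd1 (-0.62) and Col16a1 (-0.61). It was more positive for C1qtnf1 (1.04), Hsd11b1 (0.94), Hpgd (0.91), Nova1 (0.72), Ogn (0.70), Lrrn4cl (0.66), Cdkn1a (0.55) and Gsn (0.48). Sox9 was 35 times higher in another cell class. With each library left out in turn, the difference held in 1 of 7 fits for Scd1 and Gsn, 2 for Cdkn1a, 5 for AW551984, Frem1 and Col16a1, and 6 for Hpgd, Wnt2, Sfrp1 and Angpt2. That of AW551984 was lost on leaving out young replicate 2 or old replicate 1 (edgeR adjusted p up to 0.230).

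Against the Smoc2 cells without Cxcl14, 10 named genes differed by test: Mbp (2.60), Mgp (2.50), Slit2 (1.58), Ifitm1 (1.49), Egflam (1.21), Hsd11b1 (1.09), Cd55 (-0.94), Sema3c (-1.63), C4b (-1.66) and Tmem158 (-2.05).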

How the results depend on the processing

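Of 60 named genes that passed with age in the Smoc2 Cxcl14 cells, 30 passed with any library left out. Under every alternative in which they could be tested, 25 passed. The call was lost for 16 with the replicate block, 13 with thinning and 0 with DESeq2. Several of the 25, among them Gria1, Lrrc15, Ptn and Wnt5a, were not among the genes tested after thinning. With a library left out, the genes changed with age numbered 125 to 621 (390 with all), those in the other progenitors 23 to 292 (184), the differences from the other progenitors 70 to 168 (144) and those from the Smoc2 cells without Cxcl14 6 to 25 (15). Without an expression filter the counts were 692 in the Smoc2 Cxcl14 cells, 414 for the first difference and 135 for the last. After thinning they were 65 (16.9% higher in old cells, against 27.4%), 76 and 47. DESeq2 called 715 genes in the other progenitors. The stricter rule gave 90 differences from the other progenitors. With F3 UMIs allowed the counts of differences were 253 and 36, and the gap in the share of progenitors was 28.1 points (16.7 with the rule), against 2.34 points as a share of all kept cells. Thinning leaves fewer genes to test and no filter adds more, but what caused these changes in the counts was not tested.

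Replicate numbers do not pair the libraries (correlations of same-numbered libraries' deviations of -0.0966, 0.0242 and 0.0427). With the number as a replicate block, 194 genes passed in the Smoc2 Cxcl14 cells and 58 in the other progenitors.

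Log2 fold changes that changed sign belonged to genes that did not pass with age. Slit2 was 0.030 with F3 allowed. Egflam was -0.41 to 0.081 with a library left out (positive for young replicate 3), 0.035 with the replicate block, 0.76 thinned and 0.11 with F3 allowed. Mgp was -0.61 to 0.35 with a library left out (positive for young replicate 3) and 0.64 with the block. C4b was -0.82 to 0.41 (positive for young replicate 1), 0.052 with the block and 0.034 under the stricter rule. Cd55 was -0.18 to 0.41 (negative for young replicates 1, 3 and 4 and old replicate 2), -0.050 with the block, -0.29 thinned and -0.021 with F3 allowed.

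Depth limits what can be said: young replicate 1 held 28 cells. In the simulation most differences of 1 on the log2 scale went undetected. That simulation set the same spread for all genes and drew cell sets independently, so recovery in the real sums was not measured.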
